A study of Mus musculus with 8 samples.

Results

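Mitochondrial fatty acid oxidation and the citric acid cycle were followed in mouse Achilles tendon through 35 genes. The genes were chosen by name, as 19 enzymes and electron carriers of fatty acid oxidation and 16 subunits of the pyruvate dehydrogenase complex and the citric acid cycle. All 35 were among the 15747 genes with values, each with 1 row. RNA was sequenced from Achilles tendon of wild type C57BL/6J mice, operated on at the right ankle, in 8 libraries, 4 of sham-operated tendon and 4 of partially transected tendon. In the injured group a circular punch 1.5 mm in diameter had cut a semicircle 0.75 mm deep out of the lateral side of the tendon, and in the operation the tendon was freed from the soleus muscle, the calf muscle that lies under it. Age, sex and the time between operation and sampling are not given in the labels. Nor do they state whether each library is another animal, and the p-values therefore speak of the spread among these libraries, part of which may be technical. The title of the series names CTRP3, a secreted protein, but no sample carried a change in that gene according to its labels, and the comparison here is injury against sham.

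Long-chain fatty acids are activated to acyl-CoA at the outer mitochondrial membrane, pass into the matrix as carnitine esters and are shortened there by repeated rounds of dehydrogenation, hydration, dehydrogenation and thiolysis. The acetyl-CoA so formed enters the citric acid cycle, as does acetyl-CoA made from pyruvate by the pyruvate dehydrogenase complex, and the electrons pass to the respiratory chain. Skeletal muscle, heart and brown fat are rich in these enzymes, while tendon is mostly matrix with few cells.

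Each gene has a normalised read count per library, as deposited by the authors in whole numbers, and their sum per library was 13596488 to 15545903 for sham and 14568669 to 16263086 for injury. Genes of the tissue itself were present, since all 8 tendon genes listed, among them Tnmd, Scx and Col1a1, were above 0 in every library, with summed levels of 632516 to 1217585 in sham and 2225509 to 2666762 in injured tendon. Skeletal muscle RNA was present too: 35 muscle genes such as Acta1, Ttn and Myh4 held 8.68 ± 2.15% of the library total in sham and 1.33 ± 0.932% in injured tendon (mean ± SD, n = 4 per group). A change in such tissue-level values cannot tell fewer cells of a type from less RNA per cell.

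Nearly the whole set fell after injury. By limma with Benjamini-Hochberg adjustment over all 15747 genes and a threshold of 0.05, 34 of the 35 genes were lower in injured tendon, where 31.3% of all genes were lower, and 1, Cpt1a, was higher, where 28.5% of all genes were higher. The sham and injury libraries did not overlap for any of the 35, against 28.9% of all genes separated with injury lower and 26.7% with injury higher. The median log2 fold change of the 35 genes was −1.78, in a range of −2.72 to 0.74, and that of all genes was −0.02. The 19 fatty acid oxidation genes had a median of −1.82 and the 16 pyruvate dehydrogenase and cycle genes one of −1.77. As a share of the library total the 35 genes together went from 0.852 ± 0.102% (0.773 to 0.997%) in sham to 0.232 ± 0.0599% (0.179 to 0.312%) in injured tendon. These counts were the same in each fit that left out 1 library.

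**Figure D1:**
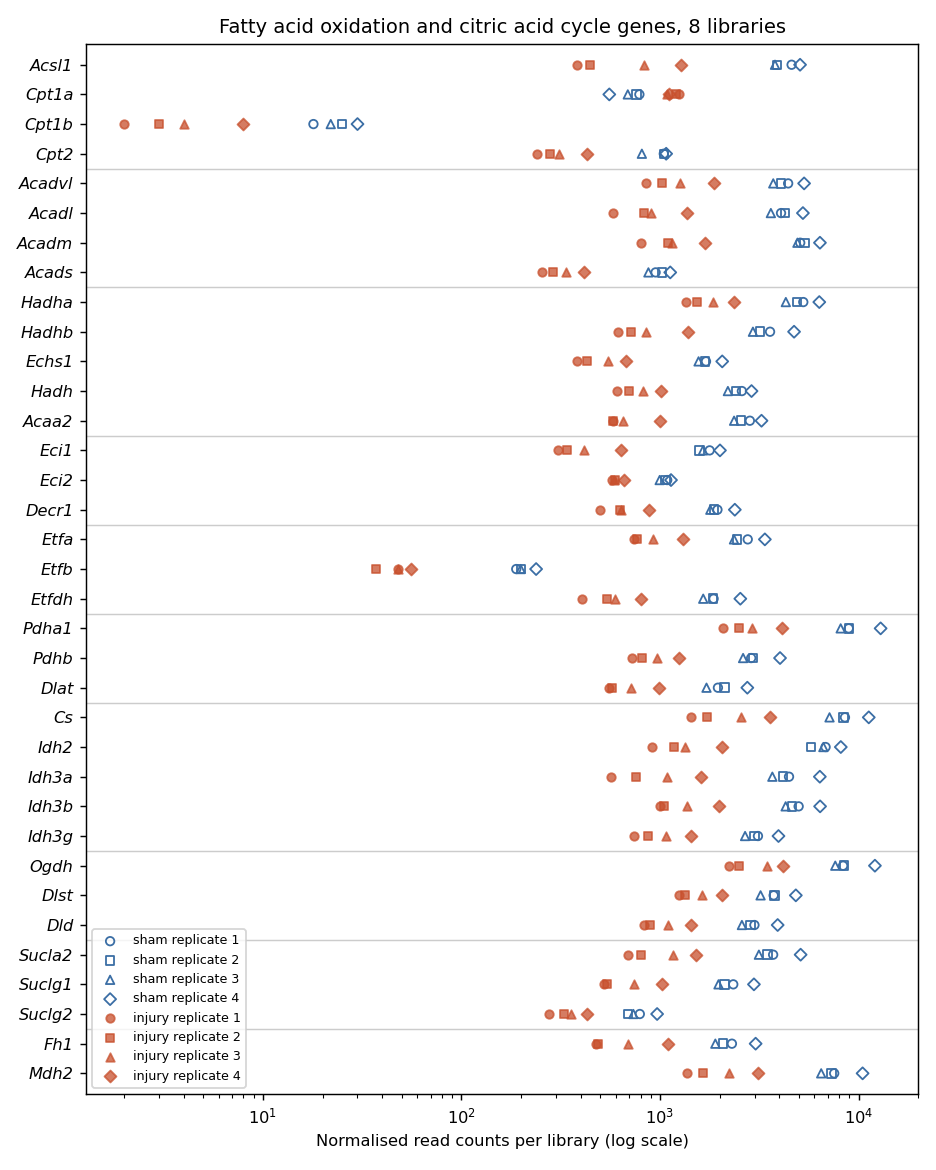
Normalised read counts (horizontal log axis) of the 35 genes (rows, with lines between the roles) in each library, with open blue symbols for the 4 sham and filled orange symbols for the 4 injury replicates, 1 shape for each replicate number. The orange symbols lie to the left of the blue ones in every row but that of Cpt1a, and the diamond of sham replicate 4 is the rightmost blue symbol in 34 rows.

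Entry of fatty acids into mitochondria gave both the steepest fall and the only rise of the set. Acsl1, which encodes the long-chain acyl-CoA synthetase of muscle, liver and fat, had 4603, 3890, 3797 and 5077 normalised read counts in sham replicates 1 to 4 and 381, 445, 829 and 1278 in injury replicates 1 to 4. Every injury library was far below every sham library, and the highest injury value was replicate 4. The log2 fold change of Acsl1 was −2.72 (SE 0.34), a 6.61-fold fall, with an adjusted p of 0.000155 in limma. Cpt2, the inner membrane carnitine palmitoyltransferase that remakes acyl-CoA in the matrix, fell 3.2-fold from 995 ± 123 to 315 ± 81.2.

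Carnitine palmitoyltransferase 1, the outer membrane enzyme that sets the rate of entry and is inhibited by malonyl-CoA, is encoded by separate genes for a liver form (Cpt1a), a muscle form (Cpt1b) and a brain form (Cpt1c). Cpt1a (ENSMUSG00000024900.5), on the forward strand of chromosome 19, had 788, 762, 689 and 556 normalised read counts in the sham libraries and 1247, 1207, 1084 and 1113 in the injury libraries. It was the only gene of the set in which the injury libraries were the higher ones, and sham replicate 4 was its lowest library. The log2 fold change was 0.74 (SE 0.11), a 1.67-fold rise, with an adjusted p of 0.000419 in limma, and it lay between 0.64 and 0.81 in the fits without 1 library. Cpt1b (ENSMUSG00000078937.8), on the reverse strand of chromosome 15, had only 18, 25, 22 and 30 in sham and 2, 3, 4 and 8 in injured tendon, and fell 5.05-fold (log2 fold change −2.34 with an SE of 0.36, adjusted p = 0.00052 in limma). In Cpt1b 81.4% of the exon length is shared with Gm44502 on the same strand, so its reads may have been counted elsewhere or not at all, and its level is uncertain. Cpt1c, which is not 1 of the 35 genes, had 192, 254, 306 and 194 in sham and 435, 491, 366 and 400 in injured tendon and rose by 0.86 on the log2 scale (SE 0.16, limma adjusted p = 0.00153). With the muscle covariate the Cpt1c call was lost (0.45, adjusted p = 0.288), as it was with the mean of fat cell genes as a covariate (0.67, adjusted p = 0.6).

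Per kilobase of exon, with all annotated exons of a gene merged, the Cpt1a level was 91.4 in sham and 152 in injured tendon. The Cpt1b level was 7.04 and 1.26. The log2 ratio of Cpt1a to Cpt1b went from 4.83 ± 0.50 to 7.91 ± 0.75, and its 8 library values did not overlap between the groups. The difference of 3.08 had p = 0.0286 in an exact two-sided permutation test, the smallest p that 4 against 4 libraries allow. After Benjamini-Hochberg adjustment over the 11 gene pairs compared, the p was 0.035. All 11 pairs were chosen with values known, which this adjustment does not correct for. Their p-values thus describe separation in these libraries and are no independent evidence.

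**Figure D2:**
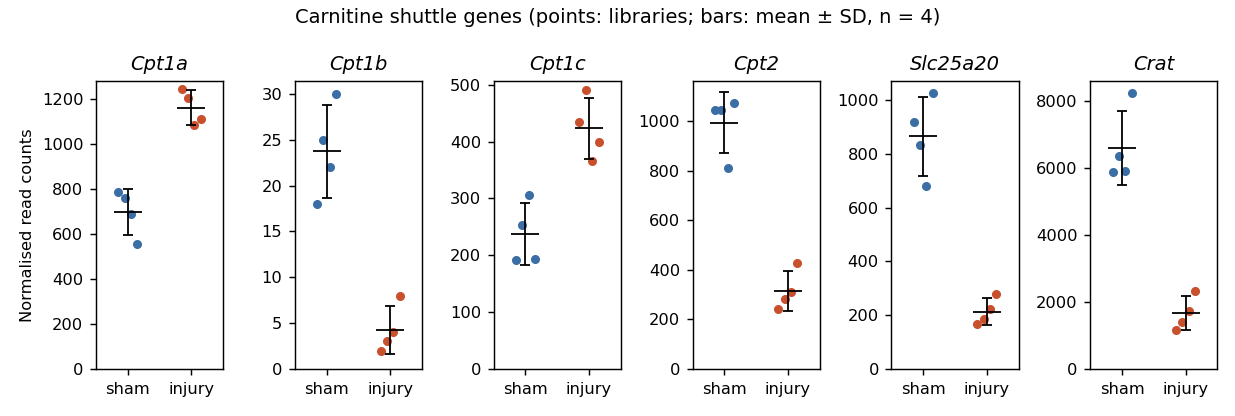
Normalised read counts (vertical linear axes from 0, 1 panel for each gene) of Cpt1a, Cpt1b, Cpt1c, Cpt2, Slc25a20 and Crat in sham and injured tendon, with a point for each library and bars at the mean ± SD of 4 libraries. Cpt1a goes from 556 to 788 in sham to 1084 to 1247 in injured tendon and Cpt1c is higher too, while the other genes are lower.

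Upstream sequence is shown here for the gene that rose, Cpt1a, for a gene that fell, Mdh2, and for the shared upstream stretch of Hadha and Hadhb, which fell together. Of the 35 genes, 31 had a window of 250 bases before to 50 bases after the RefSeq start (build GRCm38.p6), as had 11288 of the tested genes. The GC-box letters GGGGCGGGG, bound by SP1, were in the windows of 11 of the 31 genes (35.5%) on either strand, against 23.7% of the tested genes. Both Cpt1a and Mdh2 held them, with 2 and 1 matches in the stretches printed below. These letters thus occurred in genes that moved in opposite directions. Printed in lower case 5′ to 3′ on the forward strand, with these matches in capitals (read on the reverse strand as CCCCGCCCC), are chr19:3323051-3323284, which ends shortly before the RefSeq start of Cpt1a and lies in an intron of its longer GENCODE model, and chr5:135778399-135778479 upstream of Mdh2.
Cpt1a: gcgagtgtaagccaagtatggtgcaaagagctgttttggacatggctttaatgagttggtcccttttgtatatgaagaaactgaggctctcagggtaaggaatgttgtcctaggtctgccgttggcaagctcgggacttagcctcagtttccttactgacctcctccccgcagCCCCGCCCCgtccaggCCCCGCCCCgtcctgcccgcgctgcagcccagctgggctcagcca
Mdh2: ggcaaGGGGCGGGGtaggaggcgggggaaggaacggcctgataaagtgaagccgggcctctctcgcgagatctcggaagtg

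Other letters searched on both strands of these windows were TNAAGGTCA, a letter pattern bound by the estrogen-related receptors, found in 0 of the 31 genes and 0.886% of the tested genes, and CCAAT, bound by NF-Y, found in 15 of 31 (48.4%) and 42.1%. The letters GCGCANGCG, part of the NRF1 motif, were in 6 of 31 (19.4%) against 14.0%, and CCGGAAG, bound by ETS factors, in 4 of 31 (12.9%) against 18.3%. A match is a description of the letters and not a binding site, and the lack of one says only that these letters are not in the window.

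The acyl-CoA dehydrogenases, which take the first electrons from fatty acyl-CoA of different chain length, all fell, with a median log2 fold change of −2.05. Acadm, for medium chains, had 5086, 5340, 4924 and 6393 normalised read counts in sham and 805, 1104, 1144 and 1695 in injured tendon, a 4.72-fold fall (−2.24 on the log2 scale, SE 0.20, limma adjusted p = 2.7e-05). Acadl, for long chains, had 4072, 4274, 3619 and 5248 in sham and 580, 829, 898 and 1373 in injured tendon, a 4.86-fold fall. The short-chain gene Acads, with 951, 1025, 875 and 1127 in sham and 256, 291, 335 and 414 in injured tendon, fell less, by 3.1-fold. The log2 ratio of Acadl to Acads changed by −0.65 from sham to injury, and that of Acadm to Acads changed by −0.61 (exact two-sided permutation p = 0.0286, adjusted 0.035, for each). Acadvl, for very long chains, fell 3.62-fold, from 4383 ± 688 to 1253 ± 444. It shares 1151 of its 2686 exon bases with Dvl2 on the other strand, and whether the counting used strand is not given in the sources used here.

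Among the genes of the later steps of each round, Hadha and Hadhb encode the alpha and beta subunits of the trifunctional protein, which hydrates, dehydrogenates and cleaves long-chain intermediates. They lie head to head on chromosome 5, Hadha on the reverse and Hadhb on the forward strand, with 85 bases between their annotated starts in GENCODE M21. That stretch, chr5:30155163-30155247 of GRCm38.p6 on the forward strand, is printed in lower case throughout because it holds none of the letters searched.
Hadha to Hadhb: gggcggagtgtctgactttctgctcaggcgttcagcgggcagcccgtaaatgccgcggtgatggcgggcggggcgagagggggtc
Hadha had 5270, 4908, 4305 and 6345 normalised read counts in sham and 1352, 1530, 1841 and 2348 in injured tendon, a 2.98-fold fall (log2 fold change −1.58, SE 0.18). Hadhb had 3585, 3182, 2940 and 4736 in sham and 615, 713, 848 and 1386 in injured tendon, a 4.19-fold fall (log2 fold change −2.07, SE 0.25). Both had their highest sham value in replicate 4 and their highest injury value in replicate 4. They fell by unequal amounts: the log2 ratio of Hadhb to Hadha went from −0.54 ± 0.09 to −1.03 ± 0.18. The exact two-sided permutation p was 0.0286 (adjusted 0.035), for a pair chosen with values known.

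The enoyl-CoA hydratase gene Echs1 fell 3.52-fold, from 1755 ± 212 to 507 ± 130, the hydroxyacyl-CoA dehydrogenase gene Hadh fell 3.25-fold, from 2523 ± 292 to 787 ± 176, and the thiolase gene Acaa2 fell 3.98-fold, from 2752 ± 383 to 704 ± 201. Of the enzymes that unsaturated fatty acids need in addition, the isomerase gene Eci1 had 1779, 1583, 1647 and 2006 in sham and 305, 342, 417 and 635 in injured tendon. It fell 4.28-fold (log2 fold change −2.10, SE 0.20). The second isomerase gene, Eci2, whose product is found in peroxisomes as well as mitochondria, had 1088, 1065, 997 and 1137 in sham and 577, 593, 585 and 657 in injured tendon. Its fall, 1.78-fold (−0.83 on the log2 scale, SE 0.07, limma adjusted p = 2e-05), was the smallest of the 34, and its libraries were closely alike within each group. The log2 ratio of Eci1 to Eci2 changed by −1.27, from 0.71 ± 0.10 to −0.56 ± 0.39 (exact two-sided permutation p = 0.0286, adjusted 0.035). Per kilobase of exon, the level of Eci1 was above that of Eci2 in both groups, at 824.5 and 193.5 in sham and 199.7 and 108.8 in injured tendon. By count Eci2 was the higher in injured tendon, at 603 against 424.8 for Eci1. The order there rests on merged exon lengths of 5540 bases for Eci2 and 2127 for Eci1. Decr1, the dienoyl-CoA reductase gene, fell 3.06-fold, from 2000 ± 263 to 662 ± 158.

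Electrons from the acyl-CoA dehydrogenases pass to the electron transfer flavoprotein, made of the products of Etfa and Etfb, and then to its oxidoreductase, Etfdh. Etfa fell 2.98-fold, from 2738 ± 461 to 933 ± 259, and Etfdh fell 3.43-fold, from 1977 ± 388 to 585 ± 167. Etfb had 189, 200, 199 and 238 in sham and 48, 37, 48 and 56 in injured tendon, a 4.33-fold fall (log2 fold change −2.11, SE 0.14) with the lowest adjusted p of the 35 genes, 6.45e-06 in limma. Its level is uncertain, since 58.2% of its exon length is shared with Gm45233 and Mir7051, at least in part on the same strand.

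**Figure D3:**
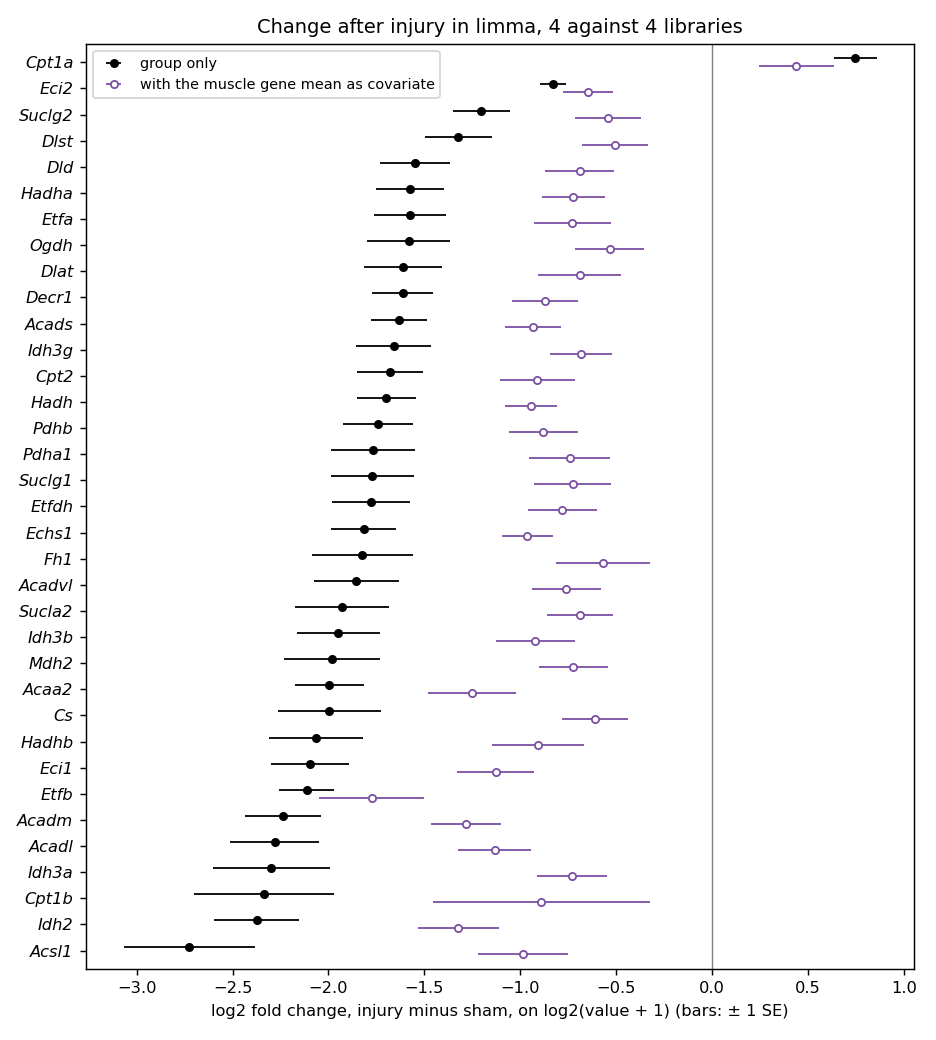
Log2 fold change of injury against sham (horizontal axis, bars of ± 1 SE) for the 35 genes, ordered from Cpt1a at the top to Acsl1 at the bottom, in the fit with the group only (black) and in the fit that adds each library's muscle gene mean as a covariate (open purple). With the group only, 34 genes lie below 0 and Cpt1a at 0.74, and with the covariate all points lie closer to 0, with a median of −0.76.

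Every gene of the pyruvate dehydrogenase complex and the citric acid cycle in the set fell. The subunits of the pyruvate dehydrogenase complex were each lower: Pdha1 (E1 alpha) 3.41-fold, Pdhb (E1 beta) 3.35-fold and Dlat (E2) 3.06-fold. Pdha1 had 8923, 8981, 8131 and 12919 normalised read counts in sham and 2080, 2501, 2894 and 4139 in injured tendon. It shares 603 of its 3734 exon bases with Map3k15 on the other strand. The log2 ratio of Pdha1 to Pdhb was 1.64 ± 0.03 in sham and 1.61 ± 0.09 in injured tendon (exact two-sided permutation p = 0.6), and that of Pdha1 to Dlat was 2.19 ± 0.07 and 2.03 ± 0.09 (exact two-sided permutation p = 0.0571, adjusted 0.0628). These were the 2 of the 11 pairs that did not pass, which does not show that their ratios were equal.

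Cs encodes citrate synthase, which joins acetyl-CoA to oxaloacetate and whose activity is a common measure of mitochondrial content. It had 8544, 8390, 7145 and 11262 in sham and 1442, 1723, 2560 and 3590 in injured tendon, a 3.98-fold fall (limma adjusted p = 0.000237). Among the isocitrate dehydrogenases, Idh2, the mitochondrial NADP-dependent enzyme, had 6825, 5770, 6653 and 8142 in sham and 911, 1179, 1344 and 2044 in injured tendon and fell 5.18-fold. This was the steepest fall among the 16 pyruvate dehydrogenase and cycle genes. Of the subunits of the NAD-dependent enzyme, Idh3a, the catalytic alpha subunit, fell 4.92-fold, Idh3b fell 3.86-fold and Idh3g, a regulatory subunit, fell 3.16-fold. Idh3a had 4467, 4161, 3682 and 6386 in sham and 566, 755, 1085 and 1609 in injured tendon, and Idh3g had 3116, 2995, 2684 and 3953 in sham and 743, 872, 1069 and 1427 in injured tendon. The log2 ratio of Idh3a to Idh3g was positive in all sham libraries, 0.46 to 0.69, and lay between −0.39 and 0.17 in the injury libraries. The change of −0.64 in that ratio, and the change of −0.29 in the log2 ratio of Idh3b to Idh3g, had an exact two-sided permutation p of 0.0286 (adjusted 0.035) each.

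The oxoglutarate dehydrogenase complex contains Ogdh (E1), Dlst (E2) and Dld (E3), the last of which it shares with the pyruvate dehydrogenase complex. Its genes had the smallest median fall among the roles of the set, a log2 fold change of −1.55. Ogdh had 8359, 8447, 7636 and 12093 in sham and 2234, 2515, 3461 and 4164 in injured tendon, a 3.0-fold fall. Dlst fell 2.5-fold, from 3891 ± 680 to 1568 ± 368, and Dld fell 2.93-fold, from 3087 ± 577 to 1064 ± 268. The Ogdh to Dlst log2 ratio changed by −0.26 (exact two-sided permutation p = 0.0286, adjusted 0.035).

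Succinate-CoA ligase pairs the alpha subunit Suclg1 with a beta subunit that uses ADP (Sucla2) or GDP (Suclg2). Sucla2 had 3716, 3478, 3150 and 5110 in sham and 694, 807, 1159 and 1512 in injured tendon, a 3.81-fold fall. Suclg2 had 792, 689, 735 and 968 in sham and 275, 329, 355 and 428 in injured tendon, a 2.3-fold fall. RNA of the gene for the ADP-using subunit therefore fell further. From sham to injury the log2 ratio of Sucla2 to Suclg2 went from 2.27 ± 0.13 to 1.54 ± 0.26 (exact two-sided permutation p = 0.0286, adjusted 0.035). Suclg1 fell 3.42-fold, from 2349 ± 444 to 705 ± 232. At the end of the cycle, the fumarase gene Fh1 fell 3.54-fold, from 2328 ± 498 to 687 ± 289, and the mitochondrial malate dehydrogenase gene Mdh2 fell 3.95-fold, from 7958 ± 1743 to 2083 ± 769.

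Per kilobase of exon, the most abundant of the 35 genes in sham were Idh2 at 2646, Pdha1 at 2608, Mdh2 at 2234 and Acadl at 2146 normalised read counts per kilobase. In injured tendon the highest were Pdha1 at 777.6, Mdh2 at 584.9 and Ogdh at 567. Cpt1b was the lowest in both groups. Merged exon lengths can differ from those of the expressed transcripts, so these ranks are approximate. As a share of the summed normalised counts of the 35 genes, Cpt1a went from 0.583 ± 0.15% to 3.47 ± 1.14%, Dlst from 3.14 ± 0.1% to 4.41 ± 0.284% and Idh2 from 5.57 ± 0.576% to 3.76 ± 0.252%.

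Most of the 35 genes moved with the muscle gene mean of the libraries. The mean log2(value + 1) of the 35 muscle genes was 14.31, 14.32, 13.99 and 15.01 in sham replicates 1 to 4 and 10.01, 11.05, 12.26 and 12.77 in injury replicates 1 to 4, a mean difference of −2.88. The mean of the fatty acid oxidation and cycle genes other than Cpt1a was 11.26, 11.21, 11.08 and 11.60 in sham and 9.03, 9.23, 9.53 and 9.997 in injured tendon, a mean difference of −1.84. Sham replicate 4 was the highest sham library in both means, and both means ranked the injury libraries in the same order. Gene by gene, 31 of the 35 (88.6%) ranked the 4 injury libraries in the order of the muscle mean, against 13.0% of all genes, and 34 of the 35 (97.1%) had their highest sham value in replicate 4, against 34.6% of all genes. The exceptions in the injury libraries were Cpt1a, Acaa2, Eci2 and Etfb.

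Within the groups, a rise of 1 in the muscle mean went with a median rise of 0.34 in the log2 level of these genes, from −0.11 for Cpt1a (SE 0.06) and 0.06 for Eci2 (SE 0.04) to 0.54 for Idh3a (SE 0.06) and 0.60 for Acsl1 (SE 0.07). The median of these slopes was 1.00 over the muscle genes themselves and 0.01 over all genes. With the muscle mean as a covariate, 30 of the 35 genes were still lower and 0 higher at an adjusted p under 0.05 in limma, where 9.87% of all genes were lower and 13.4% higher. The median log2 fold change of the 35 was then −0.76. Calls were lost for Cpt1a (log2 fold change 0.44, adjusted p = 0.134), Cpt1b (−0.89, adjusted p = 0.282), Ogdh (−0.54, adjusted p = 0.0584), Dlst (−0.51, adjusted p = 0.0603) and Fh1 (−0.57, adjusted p = 0.119). Etfb had the largest fall in that fit, with a log2 fold change of −1.78 (SE 0.28). The genes of each pair that passed the ratio test lay closer together in that fit than with the group alone. Idh3a had −0.73, Idh3b −0.92 and Idh3g −0.68, Ogdh −0.54 and Dlst −0.51, and Sucla2 −0.69 and Suclg2 −0.545. Hadhb had −0.91 and Hadha −0.72, Eci1 −1.13 and Eci2 −0.65, and Acadl −1.13, Acadm −1.285 and Acads −0.94. The ratios themselves were not tested with the covariate. Because the muscle mean did not overlap between the groups, this fit extends a slope measured within the groups across a gap that holds no library.

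**Figure D4:**
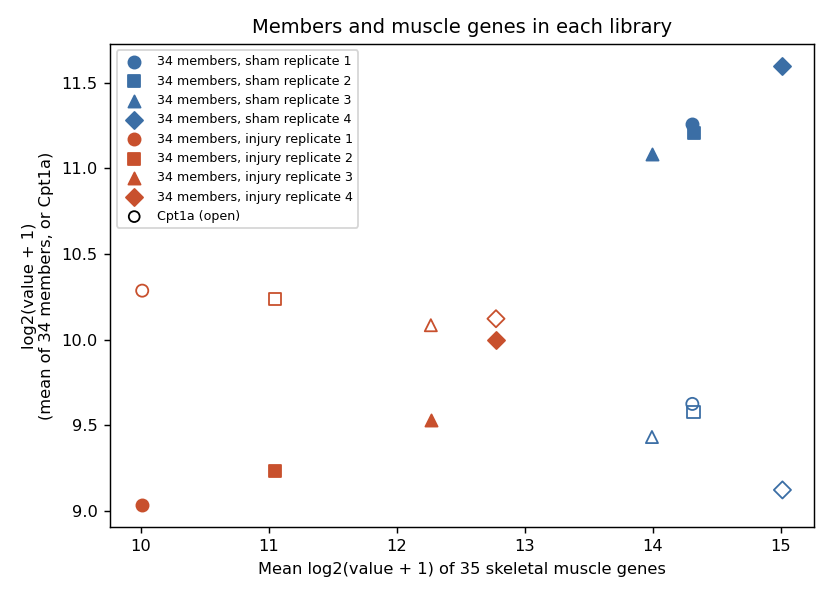
Mean log2(value + 1) of the 34 genes other than Cpt1a (filled symbols) and log2(value + 1) of Cpt1a (open symbols) against the mean of the 35 skeletal muscle genes, with sham in blue, injury in orange and 1 shape for each replicate number. The filled symbols lie at 11.08 to 11.60 in sham and 9.03 to 9.997 in injured tendon and are highest in each group where the muscle mean is highest, while Cpt1a lies higher in injured than in sham tendon.

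Relative to the muscle gene mean, few of the 35 genes passed the test. After subtraction of each library's muscle mean, 7 of the 35 were higher in injured tendon (Cpt1a, Hadha, Eci2, Ogdh, Dlst, Dld and Suclg2) and 0 lower in limma. Of all genes 91.8% were higher on that scale and 0.0572% lower, and the median log2 difference was 1.10 for the 35 genes and 2.86 for all genes. The largest difference was that of Cpt1a, 3.63 (SE 0.67, adjusted p = 6.59e-07), followed by Eci2 at 2.05 (SE 0.68, adjusted p = 0.00293). Acsl1, at 0.16 (SE 0.65, adjusted p = 0.819), was the closest to the muscle genes. Subtraction shifts the log2 fold change of every gene by the same amount, so this order is that of the fit with the group only. The count of 7 depended on single libraries: it was 2 without sham replicate 4, 3 without sham replicate 2 or injury replicate 2, 4 without sham replicate 1 or sham replicate 3, 12 without injury replicate 3 and 20 without injury replicate 4. It was 33 when the libraries with the most muscle RNA for their group, which were sham replicate 4 and injury replicates 3 and 4, were left out at once.

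Fat cell genes also moved with the groups. All 10 fat cell genes listed, such as Adipoq, Plin1 and Lipe, were lower in injured tendon (median log2 fold change −2.82), and their summed level was 17468 to 30578 in sham and 2693 to 5527 in injured tendon. Their mean log2 level was 10.55, 10.40, 10.25 and 9.63 in the sham libraries and 6.80, 7.29, 7.92 and 7.66 in the injury libraries. Sham replicate 4, the highest sham library for 34 of the 35 oxidation genes, was thus the lowest for the fat cell mean. With the fat cell mean as a covariate none of the 35 genes was called in limma, and 0.0254% of all genes were called lower; the 34 genes kept negative log2 fold changes of −0.82 to −2.29, and Cpt1a had 1.06. At an adjusted p of 0.0932 to 0.728, these are no calls, and of the 4921 genes called lower with the group alone nearly all were lost as well. The fat cell mean did not overlap between the groups either and largely followed the group, so this fit has little power to call any gene. Of the brown fat genes listed, Ucp1, Elovl3 and Zic1 had no values, and Cidea had 42 to 59 normalised read counts in sham and 2 to 10 in injured tendon. Of 5 macrophage genes 4 rose and 0 fell, and of 5 endothelial genes 3 fell and 0 rose, where 28.5% of all genes rose and 31.3% fell. The part that muscle, fat and other cells had in the fall of the 35 genes was not tested beyond these fits.

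The neighbouring steps of the pathway were read from lists of 74 further genes. Of these 50 were lower, 8 higher and 16 not called in limma (median log2 fold change −1.07), beside the 31.3% and 28.5% of all genes. These shares also apply to the counts of each list below. With the muscle mean as a covariate 26 were lower and 3 higher, beside 9.87% and 13.4% of all genes. Of the 10 genes of fatty acid uptake and activation, 5 fell and 2 rose. The transporter gene Slc27a1 fell from 1567 ± 165 to 512 ± 61.7 (log2 fold change −1.61), the fat cell fatty acid binding protein gene Fabp4 from 11870 ± 3686 to 2638 ± 766 (−2.16), and the fatty acid translocase gene Cd36 from 8283 ± 638 to 2600 ± 824 (−1.73). Acsl5, an acyl-CoA synthetase gene known from intestine, rose from 564 ± 40.8 to 742 ± 38.8 (log2 fold change 0.40, adjusted p = 0.00145). The number that rose was 1 without any of sham replicate 3, sham replicate 4 and injury replicate 4.

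The 6 further genes of the carnitine shuttle and malonyl-CoA had 4 lower, 1 higher (Cpt1c) and 1 not called, the plasma membrane carnitine transporter gene Slc22a5 (log2 fold change −0.22, limma adjusted p = 0.162). Slc25a20, the carnitine-acylcarnitine carrier, had 918, 832, 679 and 1027 normalised read counts in sham and 166, 184, 224 and 279 in injured tendon, a log2 change of −2.03 (SE 0.18, limma adjusted p = 2.49e-05). Crat, the carnitine acetyltransferase, fell from 6594 ± 1114 to 1658 ± 506, and Mlycd, which breaks malonyl-CoA down, fell from 1123 ± 95.3 to 294 ± 95.1. Other mitochondrial acyl-CoA enzymes had 9 of 10 lower and 0 higher, with a median log2 fold change of −1.06. Among them were Ech1, a dienoyl-CoA isomerase gene (−1.32), and the thioesterase genes Acot2 (−1.42) and Acot13 (−1.62).

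Peroxisomal oxidation, which shortens very long chains, moved less: 5 of 11 genes fell, 1 rose and 5 were not called, and the median log2 fold change was −0.26. The carrier protein gene Scp2 fell from 1702 ± 144 to 970 ± 148 (log2 fold change −0.82), and the membrane transporter gene Abcd3 had a log2 fold change of −0.61. Crot, which makes carnitine esters in peroxisomes, rose by 0.15 on the log2 scale, from 554 ± 19.8 to 614 ± 15.2, with an adjusted p of 0.0499 in limma. Leaving out sham replicate 1, sham replicate 2 or any of injury replicates 1, 2, 3 and 4 ended that call.

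All 9 further genes of the citric acid cycle and pyruvate entry fell, with a median log2 fold change of −1.83. Sdhc, a subunit of succinate dehydrogenase, had a log2 fold change of −1.82, Mpc2, a subunit of the mitochondrial pyruvate carrier, one of −1.96, and the pyruvate carboxylase gene Pcx one of −1.30. Of the 10 cytosolic counterparts and lipid synthesis genes, 4 fell and 3 rose, near the 31.3% and 28.5% of all genes. The cytosolic NADP-dependent enzyme Idh1 had 794, 784, 785 and 632 in sham and 1227, 1181, 1345 and 1371 in injured tendon, a rise of 0.78 on the log2 scale (SE 0.09, adjusted p = 0.000113 in limma) that was still called with the muscle covariate (0.85, adjusted p = 0.0106). Its mitochondrial counterpart Idh2 fell, as given above. The cytosolic malate dehydrogenase gene Mdh1, in contrast, fell from 8440 ± 2051 to 1903 ± 862, close to the change of Mdh2 (log2 fold changes −2.23 and −1.98). Me1, the cytosolic malic enzyme, had a log2 fold change of −1.27. The fatty acid desaturase gene Scd1 had 19195, 16245, 16210 and 5621 in sham and 3498, 2913, 5002 and 4434 in injured tendon, a log2 change of −1.74 (limma adjusted p = 0.00274), with its lowest sham value in replicate 4, as for the fat cell mean.

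Kinases and phosphatases that switch the pyruvate dehydrogenase complex off and on had 6 of 7 genes lower and 1 higher. Pdk4, the kinase gene known to respond to fasting and fatty acids in muscle, had 10372, 6994, 8966 and 10696 normalised read counts in sham and 190, 798, 1345 and 1943 in injured tendon, a log2 change of −3.52 (SE 0.61, limma adjusted p = 0.00094). With the muscle covariate its log2 fold change was −0.49 (adjusted p = 0.484). Pdk2 fell from 3610 ± 749 to 811 ± 325 and Pdk1 from 1457 ± 491 to 577 ± 166. Pdk3, in contrast, had 118, 107, 104 and 86 in sham and 212, 188, 179 and 186 in injured tendon, and rose by 0.88 on the log2 scale (SE 0.12, adjusted p = 0.000192 in limma), a call that was lost with the muscle covariate (0.59, adjusted p = 0.0809). The phosphatase gene Pdp1 and the gene of its regulatory subunit, Pdpr, had log2 fold changes of −0.60 and −1.13.

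Among 11 genes of transcriptional regulators of oxidative metabolism, 8 fell, 0 rose and 3 were not called, with a median log2 fold change of −1.60. Esrra, the estrogen-related receptor alpha, had 1039, 1220, 1086 and 1504 in sham and 328, 385, 405 and 471 in injured tendon, a log2 change of −1.60 (SE 0.14, limma adjusted p = 2.46e-05). Esrrb fell from 213 ± 70.4 to 26.2 ± 19.6, and Tfam, the mitochondrial transcription factor A, from 542 ± 62.3 to 294 ± 22.1. Gabpa, an ETS factor and the most abundant of the list by normalised count, had 1108 ± 79.1 in sham and 1044 ± 53.5 in injured tendon, which did not pass (limma adjusted p = 0.335). With the muscle covariate, 3 of the 11 were still lower, beside 9.87% of all genes. Of the genes named from these lists, the limma calls of Acsl5 (log2 fold change 0.35), Scp2 (−0.40), Abcd3 (−0.20), Crot (0.14), Pdk1 (−0.36), Pdpr (−0.29), Scd1 (−1.75), Me1 (−0.47) and Esrrb (−1.25) were also lost with that covariate, at adjusted p of 0.089 for Esrrb to 0.468 for Pdk1.

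**Figure D5:**
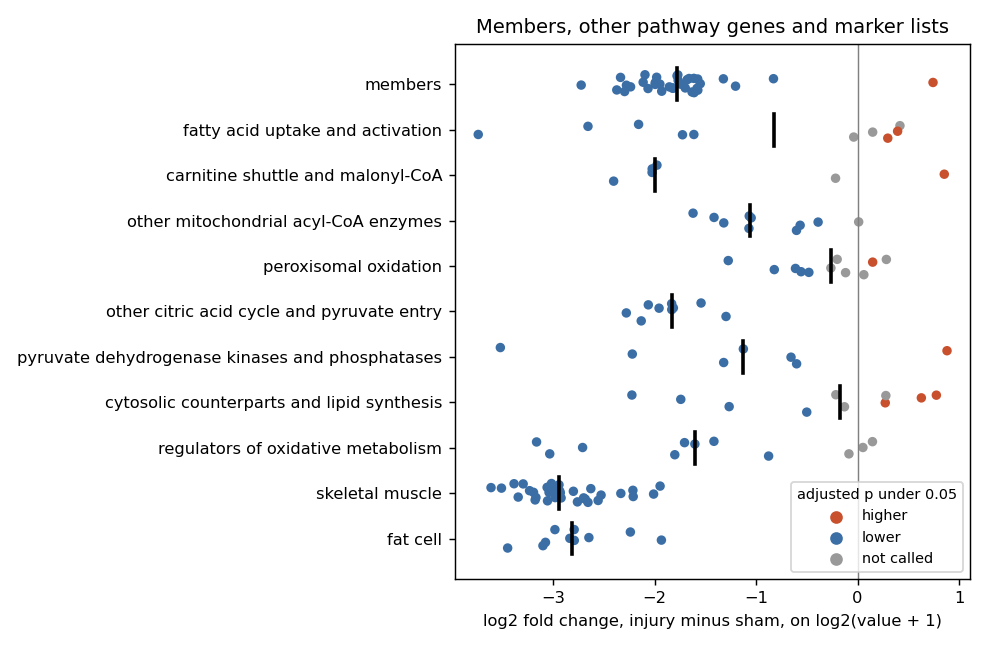
Log2 fold change of injury against sham (horizontal axis) for the 35 genes (the row named members), the genes of the 8 further pathway lists and the skeletal muscle and fat cell lists, with 1 point for each gene coloured by its call in limma and a black bar at each median. The pathway medians run from −2.0 for the carnitine shuttle and malonyl-CoA list to −0.17 for the cytosolic and lipid synthesis list, and the muscle and fat cell medians are −2.95 and −2.82.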

How the data were processed

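The deposited values are normalised read counts, per the file headers, held as whole numbers, and were treated as a score and not as raw counts. The submitters' processing notes name Trimmomatic 0.39, STAR 2.7.6a, StringTie 1.3.5 and edgeR 3.12, as well as both mm10 and mm9, and do not say what each served for. Not given in the sources used here are the normalization, the strandedness of the counting and the rule by which 39703 of 55450 listed genes had no value. Library totals were 13596488 to 16263086, and equal values made up 1.11 to 2.25% of genes in any pair of libraries of a group.

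The planned test for such values was limma (version 3.58.1, run in R 4.3.3), applied to log2(value + 1) with the group as the only term, a prior variance following mean expression, and Benjamini-Hochberg adjustment over all 15747 genes with a threshold of 0.05. A minimum of 1 in at least 4 libraries removed 0 genes. Since 1 was added before taking logs, changes of low genes are understated. The scripts were tested on simulated data. Ratios of genes were compared with scipy 1.17.1. Positions and exon lengths came from GENCODE M21, which matched 99.9% of gene identifiers (96.8% in version), and upstream sequences from RefSeq. Plots used matplotlib 3.10.9 in Python 3.11.15.

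The 35 genes, the pathway lists and the cell type lists were chosen with earlier results of these data known. Named were every 1 of the 35 genes; of each pathway list the most abundant gene, at most 3 called genes by smallest adjusted p in the commoner direction and 1 in the rarer direction; and all genes of the isoform sets of Cpt1, the succinate-CoA ligase beta subunits and Pdk. Some genes that this rule chose are not reported here. Alternatives covered other scalings, pseudocount and filter, a single prior variance, the replicate block, muscle and fat cell covariates and libraries left out. Restriction to genes that share no exon bases with another tested gene was added after seeing the data.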

Additional observations from a re-analysis of the deposited data

Results flagged for a closer look

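Among 76 groups of 4 libraries looked at, 2 held a library far from the other libraries of its group (a gap to the nearest, over the range, above Dixon's 95% critical value), where chance flags about 1 in 20 groups. Cpt2 had 811 normalised read counts in sham replicate 3, while the other sham libraries had 1046 to 1075 (gap over range 0.89). Acaa2 had 1001 in injury replicate 4, while the other injury libraries had 581 to 650 (gap over range 0.836). Both genes were called lower in every fit that left out 1 library.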

How the results depend on the processing

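The counts of 34 lower and 1 higher among the 35 genes were the same with a pseudocount of 0.1 and a single prior variance. They were also the same with each library left out, libraries scaled to equal totals, and factors by median ratio or upper quartile. A minimum mean of 50 removed Cpt1b and gave 33 and 1. Restriction to the 29 genes that share no exon bases with another tested gene gave 28 and 1. These 29 still include Cpt1b and Etfb, whose shared exons belong to genes that were not tested. With the muscle covariate 30 were lower and 0 higher, and with the fat cell covariate 0 were lower and 0 higher. Of the 35, the number higher relative to the muscle mean was 7, with 2 to 20 in fits without 1 library, 33 with sham replicate 4, injury replicate 3 and injury replicate 4 all left out, and 0 with the fat cell covariate. For the 74 pathway list genes, 50 lower became 26 with the muscle and 0 with the fat cell covariate. Their 8 higher became 3 and 1 in these fits, 5 with equal totals and 5 to 7 in fits without 1 library. Among those that share no exon bases with another tested gene, 5 were higher. The cause was not tested. Over all genes the median log2 fold change was −0.02, and −0.11 with equal totals. The labels tie no replicate number to an animal or batch. After each gene's group mean was subtracted from its log2 values, same-numbered libraries correlated at 0.249, 0.284, −0.00957 and 0.493 for numbers 1 to 4. By these correlations sham replicates 1, 2 and 4 were most like the injury library of their number. Sham replicate 3 was most like injury replicate 1. Pairing was thus not shown for every number, and the fit without the block was kept. With the replicate block 34 genes were lower and 1 higher, 9 were higher relative to the muscle mean, and 50 pathway list genes were lower and 9 higher. A planned count model was not run because the values are not raw counts. At low depth, as for Cpt1b, precision is limited by few counts, and no depth in reads is known.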
